A study of Homo sapiens and Mus musculus with 66 samples.

Results

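The regions of HCT116 cells called close to the nuclear lamina 90 min after release from a mitotic block were compared, window by window, with those called at 180 min. The genome was divided into 30970 windows of 100 kb (hg19, chromosomes 1 to 22, X and Y), and a window counted as called when a region of the deposited list covered at least 50% of it. A window called at both times was termed kept, one called at 90 min alone lost, and one called at 180 min alone gained. Of the 30970 windows, 9541 were called at 90 min, at 180 min or at both.

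HCT116 is a colorectal cancer cell line. Cells of both groups had been blocked with nocodazole for 16 h, shaken off, released and sorted for G1 DNA content, after 90 min in the population named 90m G1 (early G1 in the labels) and after 180 min in 180m G1 (later G1). No genetic change is given for either group. Lamin-B1 cTSA-seq marks chromatin near lamin-B1 with biotin through a peroxidase reaction, and the biotinylated chromatin is pulled down and its DNA sequenced beside an input. The labels hold 4 libraries per time, an input and a pull-down for each of 2 replicates. What was deposited is a single list of regions for each time. By the study's methods a list is the intersection of the replicates' calls, although the names of these lists, unlike those of the other HCT116 lists, do not call them a consensus. With no list per replicate, the spread between replicates and the depth of each library are unknown and no comparison between the times has a test. The time after release and any difference in sorting or library preparation between the groups cannot be told apart.

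The nuclear lamina is a meshwork of lamin proteins under the inner nuclear membrane. Large stretches of mostly silent, gene-poor and AT-rich chromatin, the lamina-associated domains or LADs, lie against it in interphase. The lamina is taken apart at mitosis and forms again around the chromosomes as the cells enter G1, so each cycle the contacts have to be made anew.

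A stretch of 200 bases from the longest run of lost and of gained windows is shown to give the base composition that set these classes apart, as described further on. Each is the stretch, among all stretches of 200 bases tiling its run, with the GC content and CpG number of the run's median, on the plus strand of hg19, with each CpG dinucleotide in capitals. The lost stretch, chr2:236719601-236719800, lies in an intron of AGAP1, which encodes an Arf GTPase-activating protein, and has a GC content of 46.5% with 2 CpGs. The gained stretch, chrX:89700601-89700800, overlaps no annotated gene and has a GC content of 35% with 1 CpG.
lost: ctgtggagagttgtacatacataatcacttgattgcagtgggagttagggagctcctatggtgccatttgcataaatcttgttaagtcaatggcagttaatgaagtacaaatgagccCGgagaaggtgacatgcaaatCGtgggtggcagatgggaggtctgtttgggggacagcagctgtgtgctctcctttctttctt
gained: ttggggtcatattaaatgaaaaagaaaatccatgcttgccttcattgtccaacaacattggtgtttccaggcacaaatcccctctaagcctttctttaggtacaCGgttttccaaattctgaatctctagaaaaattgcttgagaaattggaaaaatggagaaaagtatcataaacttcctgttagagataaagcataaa

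Most of what was called at 90 min was no longer called at 180 min, and most of what was called at 180 min had not been called before. At 90 min 5275 windows were called, 17% of all windows, and at 180 min 6344, or 20.5%. Kept windows numbered 2078 (6.71% of all windows, 207.8 Mb), lost windows 3197 (10.3%, 319 Mb) and gained windows 4266 (13.8%, 427 Mb). Thus 39.4% of the windows of 90m G1 were called again at 180 min, and 32.8% of the windows of 180m G1 had already been called at 90 min. Over the 22 chromosomes with calls at 90 min, the kept share had a median of 37.1% and ran from 0 to 62.9%. A window enters or leaves a list when its state changes in a model fitted to that list's own signal, so the size of the change in signal behind a lost or gained window is not known. In these cell populations, contact in more cells and closer contact in each cell cannot be told apart.

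The number of called windows rose from 90 to 180 min on 15 chromosomes, fell on 8 and was equal on chromosome 19, where no window was called at either time. Chromosome X had the highest kept share, with 229 of its 364 windows of 90m G1 (62.9%), followed by chromosome 8 with 52.2% and chromosome 5 with 49.8%. No window was kept on chromosomes 17, 20 and 22, which had 28, 20 and 9 called windows at 90 min. These 3 chromosomes thus held few early calls, and none of those calls remained at 180 min. In G1 cells sorted from growing cultures without a block, however, 85% of the 20 lost windows of chromosome 20 were called. Of the 28 lost windows of chromosome 17, 0% were called there. Chromosome 21 went from 0 called windows to 35, and chromosome 22 from 9 to 0.

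Chromosomes also differed in which of loss and gain was larger. On chromosome 1 the called windows fell from 633 to 341, with 460 lost against 168 gained, and 18.5% of the chromosome's windows were lost, the highest share of the 24. On chromosome X they rose from 364 to 716, on chromosome 18 from 95 to 295 and on chromosome 8 from 289 to 523. Gained windows made up 33.3% of chromosome 18, 31.4% of X and 26.8% of chromosome 11. On chromosome 5 the totals were nearly equal, 480 and 464 windows, although 241 were lost and 225 gained. Likewise chromosome 9 had 284 and 281 called windows with only 92 of them shared. On chromosome 13 the calls increased from 55 to 162 and 7 were kept, and on chromosome Y they went from 76 to 44 and 5 were kept. The lost windows of Y include chrY:1-300000 and chrY:400001-2400000, with 3 and 20 windows. These windows had no known bases in the sequence used for GC content.

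**Figure D1:**
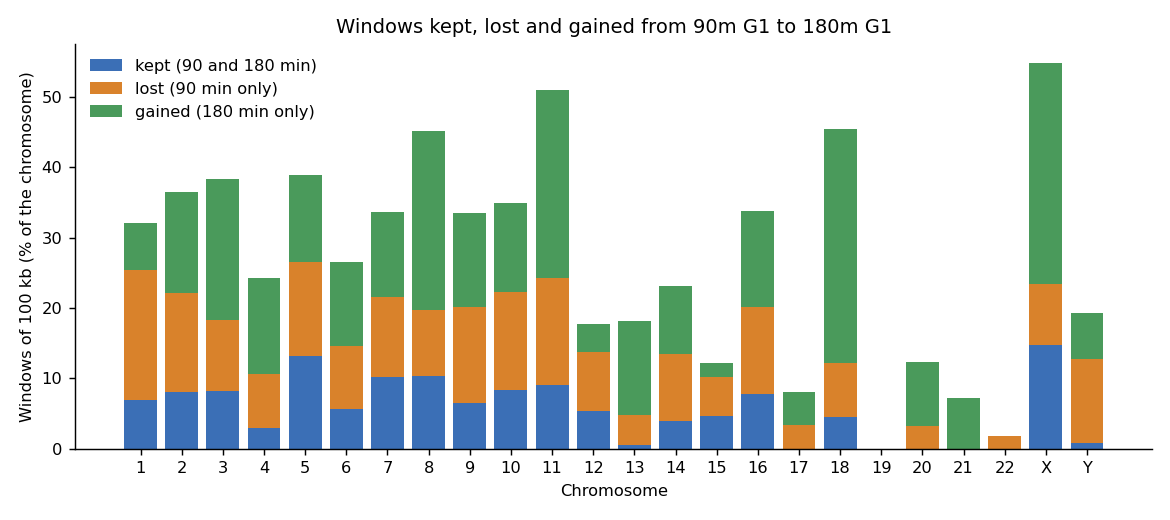
Windows of 100 kb kept (called at 90 and 180 min, blue), lost (90 min only, orange) and gained (180 min only, green) as a percentage of all windows of each chromosome, stacked. Chromosome 19 has no bar, chromosome 21 has gained windows alone, chromosome 22 lost windows alone, and chromosome X reaches the highest total.

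The change had a clear direction along the chromosome, from the ends inward. Distances were measured to the nearest chromosome end, or to the end of the long arm for the 5 acrocentric chromosomes. Within 5 Mb of an end 65.9% of the windows were called at 90 min and 21.3% at 180 min, whereas beyond 40 Mb the order was the opposite, 1.70% and 15.7%. The called share at 90 min fell with each bin, to 53.3% between 5 and 10 Mb, 33.6% between 10 and 20 Mb and 12.7% between 20 and 40 Mb. At 180 min the same bins gave 33.0%, 23.2% and 24.0%, so the gradient of the earlier list was mostly gone. In bins of 2 Mb the outermost bin was called to 65.2% at 90 min and to 14.9% at 180 min.

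Of the 4313 windows within 10 Mb of an end, 1609 were lost, 963 kept and 207 gained. Gained windows were thus rare there. Of all gained windows 95.1% lay farther than 10 Mb from an end, near the 92.8% of windows called at neither time. Within 10 Mb, 59.6% of the windows were already called at 90 min and could not be gained. The median distance was 40.75 Mb for gained windows, close to the 44.35 Mb of windows called at neither time, against 9.95 Mb for lost and 11.15 Mb for kept windows. The kept share of the 90m G1 windows showed no such gradient and was 30.3% within 5 Mb, 46.3% between 5 and 10 Mb, 41.3% between 10 and 20 Mb, 42.6% between 20 and 40 Mb and 35.7% beyond. Seen from 180 min the pattern was steeper. Nearly all late calls close to an end were old, 93.7% of them within 5 Mb, and nearly all in the interior were new, with 3.86% beyond 40 Mb already called at 90 min. Of all windows, called late or not, 65.9% within 5 Mb and 1.70% beyond 40 Mb were called at 90 min. Much of this contrast therefore follows from where the earlier list lay.

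**Figure D2:**
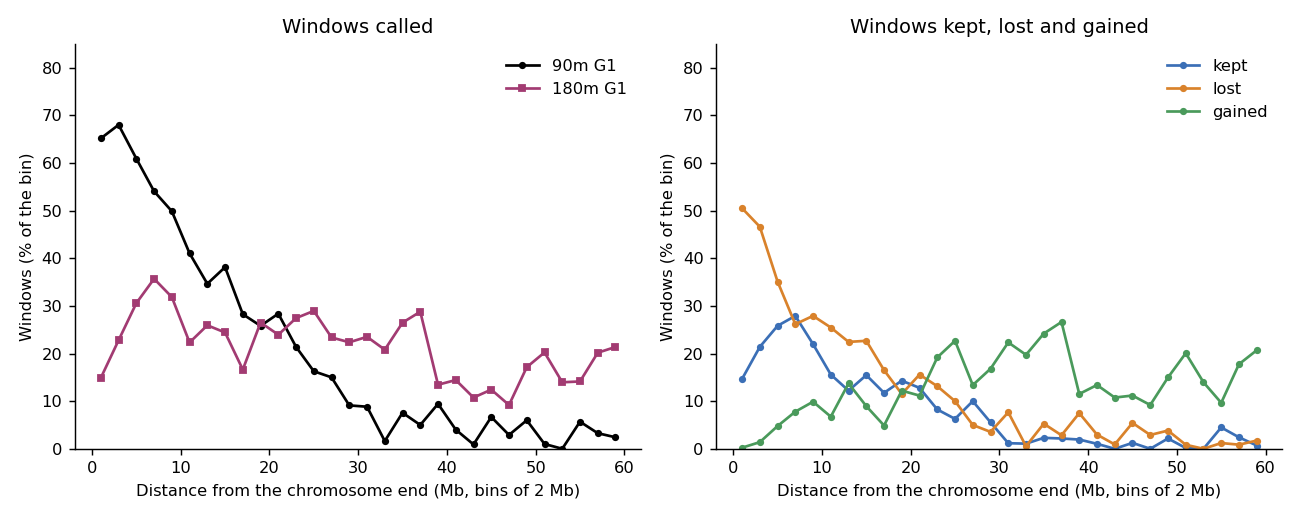
Left, windows called in 90m G1 (black) and 180m G1 (purple) as a percentage of the windows in each bin of 2 Mb from the chromosome end, shown to 60 Mb; right, the same for kept, lost and gained windows. The 90m G1 line starts at 65.2% and falls toward 0, and the 180m G1 line starts at 14.9% and shows no such fall. Lost windows dominate near the end and gained windows beyond about 20 Mb.

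The inward shift was seen arm by arm. Of 43 chromosome arms, leaving out the short arms of the acrocentric chromosomes, 37 had calls at both times, and in 35 of them the median called window lay farther from the end at 180 min. The median position over the arms was 12.3% of the arm length from the end at 90 min and 46.5% at 180 min. The terminal 5 Mb was called to at least 50% on 29 arms at 90 min and on 7 at 180 min. It was called to a smaller part at 180 min on 37 arms and to a larger part on 1, the short arm of chromosome 18, which went from 0 to 18%. On the remaining 5 arms it had no call at either time.

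Some arm ends kept their calls and others lost them entirely. The terminal 5 Mb of 3p was called to 100% at 90 min and to 90% at 180 min, that of 8p to 98% and 82%, and that of 2p to 98% and 78%. By contrast the terminal 5 Mb of 2q, 5q, 8q and 16q was called to 100% at 90 min and to 0 at 180 min. The opposite ends of chromosomes 2 and 8 therefore behaved differently, the short arm keeping most of its terminal calls and the long arm none. These arms were chosen after their values were seen.

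Base composition differed between the classes. The median GC content was 45.7% for lost windows (quartiles 42.5 and 49.6%), 39.7% for kept windows (37.9 and 42.1%) and 36.8% for gained windows (35.6 and 38.3%), against 39.8% for all windows with at least 50% of known bases. The windows that left the list were therefore richer in GC than the genome, those that joined it poorer, and those that stayed lay between. The lost and gained stretches printed above were chosen to match the medians of their runs. Their difference in the same direction follows from that choice and adds no evidence. The ratio of observed to expected CpG had the same order over the windows, with medians of 0.261 in lost, 0.198 in kept and 0.178 in gained windows.

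The order held on each chromosome that had windows of the classes compared. Lost windows had a higher median GC content than kept windows on 19 of 19 chromosomes, by 1.07 to 10.2 percentage points, and kept windows a higher one than gained windows on 19 of 19, by 0.95 to 5.65 points. Since GC content also rises toward chromosome ends, the classes were compared within bins of distance. Within 5 Mb of an end the medians were 48.6% for lost, 41.8% for kept and 37.2% for gained windows. Between 5 and 10 Mb they were 45.6%, 39.9% and 37.8%, and the order was the same in the other 3 bins.

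When all windows were divided into 5 equal groups by GC content, the share of 90m G1 windows that were kept fell from 95.5% in the lowest group (GC up to 36.6%) through 83.9%, 65.3% and 37.8% to 9.98% in the highest (GC from 44.7%). Windows not called at 90 min followed the same gradient, 36.2% of them being gained in the lowest group and 0.569% in the highest. The relation of the lists to GC thus turned over with time. Within 10 Mb of an end, 27.9% of the windows of the lowest group and 61.6% of the highest were called at 90 min, and at 180 min 65.0% and 7.61%. Between 10 and 40 Mb the called share rose over the 5 groups from 7.18 to 29.4% at 90 min and fell from 50.0 to 2.22% at 180 min. GC content can also affect how well a stretch is amplified and sequenced. The pull-down was set against an input of the same time by the authors, and the part of sequencing in these differences was not tested.

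**Figure D3:**
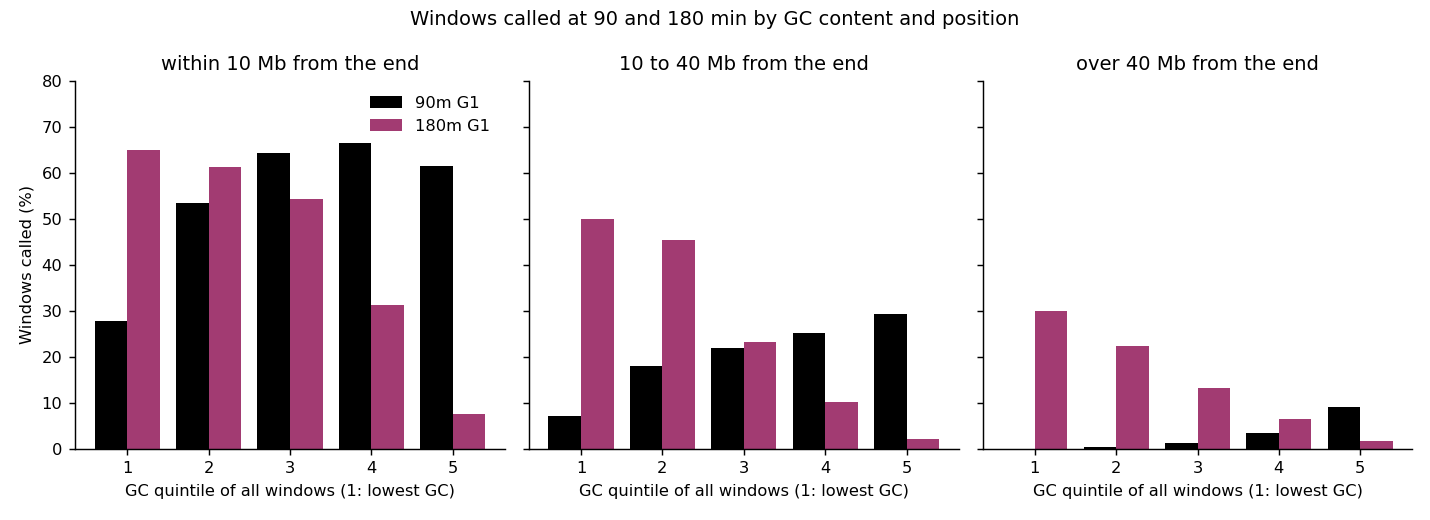
Windows called in 90m G1 (black bars) and 180m G1 (purple bars), as a percentage, in 5 groups of equal size by GC content (1 the lowest), for windows within 10 Mb, 10 to 40 Mb and over 40 Mb from the chromosome end. In each panel the lowest GC group is called more at 180 min and the highest more at 90 min.

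The fate of a region varied with its size. Of the 204 regions of 90m G1, 102 shared no window with 180m G1, 79 shared a part and 23 shared every window. Regions with nothing shared were small, with a median of 0.7 Mb, and rich in GC (median 46.6%), while those shared in part had a median of 3.2 Mb and a GC content of 41.9%. The 23 regions shared entirely were small as well, with a median of 0.7 Mb, and had the lowest GC content, 38.8%. By size, 23.6% of the windows in regions under 1 Mb, 34.6% in regions of 1 to 5 Mb and 44.1% in regions of 5 Mb and over were kept. Only 2 of the 32 regions of at least 5 Mb were lost altogether, and 20 regions broke into 2 to 5 pieces.

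Large early regions therefore shrank and split more often than they vanished. A larger region also has more windows, any of which can be shared, so its size bears on these counts. The longest, 25.5 Mb near the end of the long arm of chromosome 5 (chr5:149000001-174500000), kept 134 of its 255 windows, or 52.5%. It contains TENM2, a teneurin of neuronal synapses, SGCD, a sarcoglycan, and SLIT3, an axon guidance ligand. The second, 23.2 Mb on the short arm of chromosome 2 (chr2:800001-24000000) with MYT1L, a neuronal transcription factor, kept 65.9%. The third, 18.5 Mb on the long arm of X (chrX:135600001-154100000) with FGF13, AFF2 and GABRA3, kept 77.8%.

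Gained windows were mostly new regions and not extensions of old ones. Of the 377 regions of 180m G1, 244 contained no window called at 90 min, 48 contained some and 85 consisted of such windows alone. Joined into runs, the gained windows formed 302 stretches, of which 60 (19.9%, 75.7 Mb) touched a window called at 90 min and the others, 351 Mb, did not. Kept runs bordered on a lost run at 171 of their 268 borders and on a gained run at 59. The kept stretches thus lay beside windows that left the list more often than beside windows that joined it.

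The longest run of each class shows these features together. The longest kept run covered 13.2 Mb of the long arm of X (chrX:136000001-149200000), 6.12 to 19.2 Mb from the end, with a GC content of 38.5% and 46 protein-coding genes, among them FGF13, a member of the fibroblast growth factor family, and AFF2, the gene of a fragile site of X. The other kept runs of the rule, 7.7 Mb each, lay on chromosome 5 (chr5:2200001-9900000 with SEMA5A, ADCY2 and ADAMTS16, and chr5:159800001-167500000 with TENM2, ATP10B and GABRB2). The longest lost run took in the last 130 windows of chromosome 2 (chr2:230200001-243199373), with a GC content of 46.7% and 123 genes, including AGAP1, DIS3L2, an exoribonuclease, and DNER, a Notch ligand. It was followed by 8.2 Mb at the end of chromosome 9 (chr9:132800001-141000000), with a GC content of 52.8% and 160 genes, among them EHMT1, a histone H3 lysine 9 methyltransferase, and CACNA1B, a calcium channel, and by 7.8 Mb of 3p (chr3:8600001-16400000, 83 genes).

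The longest gained runs were in the interior and almost empty of genes. The first, 12 Mb of the long arm of X (chrX:83700001-95700000), lay at least 59.6 Mb from an end, had a GC content of 36.1% and held 13 genes, with PCDH11X, a protocadherin, DACH2 and CHM as the longest. The second, 9.8 Mb of 5p (chr5:21500001-31300000, GC 35.1%), held 4 genes, of which CDH12, CDH9 and CDH10 are cadherins. The third, 7.1 Mb of 4q (chr4:58300001-65400000, GC 35.2%), held 2, the adhesion receptor gene ADGRL3 and TECRL.

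Gene content differed accordingly. A protein-coding gene was assigned to a class when at least 80% of its length lay in windows of that class. Of 20144 genes, 3004 were in lost windows (14.9% of all genes), 641 in gained windows (3.18%) and 415 in kept windows (2.06%), and 15873 were called at neither time. The lists thus went from 3448 genes in 90m G1 to 1069 in 180m G1, although the later list covers more of the genome. The density was 9.42 genes per Mb in lost, 2.00 in kept and 1.503 in gained windows, and 7.41 in windows called at neither time. The length behind the last value includes most of the 2308 windows with under 50% known bases, so that density is understated. It was higher in lost than in kept windows on 17 of 17 chromosomes and than in gained windows on 21 of 21. Kept windows were denser than gained ones on 10 of 17 chromosomes, so this order did not hold throughout. Within 10 Mb of an end the densities were 10.4, 2.44 and 1.59 in lost, kept and gained windows, and beyond it 8.41, 1.61 and 1.498.

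Genes of great length made up a larger share of the kept and gained genes than of the lost ones. Genes over 500 kb made up 9.16% of the kept and 10.3% of the gained genes but 0.533% of the lost ones, against 1.61% of all genes. Of the 324 such genes, 38 were kept, 66 gained, 16 lost and 145 called at neither time, and 59 were in no single class. The longest kept genes included CNTNAP2, a neurexin family member of 2.305 Mb on chromosome 7, CSMD1 (2.06 Mb) on chromosome 8 and TENM2 (1.29 Mb) on chromosome 5, followed by DPP6, CDH13, OPCML and WWOX. The longest gained genes were DMD, which encodes dystrophin (2.24 Mb), on X, DLG2, a synaptic scaffold (2.17 Mb), on chromosome 11, EYS on chromosome 6 and ROBO2, an axon guidance receptor, on chromosome 3, followed by FHIT, GPC5, CTNNA2 and RBMS3. None of these 8 gained genes lay within 20 Mb of an end, while the kept genes named were all within 14 Mb.

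The longest lost genes were shorter, from CAMTA1 with 0.984 Mb on chromosome 1 through NAV2, LPP, ALK, the receptor tyrosine kinase, TRAPPC9, CDH4 and DOCK1 to CSMD2 with 0.652 Mb. Among these, loss at 180 min did not always mean absence from later lists. In the list of G1 cells sorted from growing cultures without a block, none of CAMTA1, NAV2, LPP and DOCK1 was called, whereas ALK was called over 88.4% of its length, CDH4 over 68.7% and CSMD2 over 66.2%. Conversely FHIT, gained over 84.2% of its length, was called over 6.65% in that list, and RBMS3, gained over 94.2%, was not called there.

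The genes of 21 lists were counted by class in the same way. Of 414 olfactory receptor genes, 114 (27.5%) were gained, 56 (13.5%) kept and 15 (3.62%) lost, against 3.18%, 2.06% and 14.9% of all genes. The count rests on few clusters, since 45 of the 56 kept genes lie near the end of the long arm of chromosome 1, such as OR14A2 and OR2G6, and 90 of the 114 gained ones on chromosome 11, such as OR51E2 and OR8A1. Neither OR51E2 nor OR8A1 was called in the G1 list of growing cells, while other gained genes of that chromosome were. Of 24 bitter taste receptor genes 7 were kept, 6 of them on chromosome 7 (TAS2R4 and TAS2R38, for example) and TAS2R1 on chromosome 5, and none were lost or gained. The 6 on chromosome 7 were not called in the G1 list, and TAS2R1 was. Of 40 beta-defensin genes, antimicrobial peptides of epithelia, 14 were lost and none kept or gained. Of the lost genes 13 lie within 1 cluster on the short arm of chromosome 8, among them DEFB1, DEFB104A and DEFB107B. Those with paired A and B copies, such as DEFB104A and DEFB107B, lie in segmental duplications where reads of the copies can be hard to place. All 53 clustered protocadherin genes and all 17 type I interferon genes were called at neither time.

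Of 19 GABA-A receptor subunit genes, which form chloride channels gated by the transmitter GABA, 6 were kept, 3 lost and 3 gained. These shares were 31.6%, 15.8% and 15.8%, against 2.06%, 14.9% and 3.18% of all genes. The lost share is thus near the background. GABRB2 and GABRA6 on chromosome 5, about 20 Mb from the end, were kept, as were GABRA3 and GABRE on X, while GABRA2, GABRG1 and GABRA4 in the interior of chromosome 4 were gained. GABRP, GABRQ and GABRD were lost, GABRQ lying close to the kept genes on X. Of 19 classical cadherin genes 8 (42.1%) were gained, among them CDH18, CDH12 and CDH8. Another 2 (10.5%) were kept, CDH13 and CDH11, and 3 (15.8%) lost, CDH4, CDH5 and CDH15. Their lost share is near the background too. CDH2, which encodes N-cadherin, was gained at 180 min and not called in the G1 list of growing cells. Of 18 ionotropic glutamate receptor genes, GRIA1 was kept (5.56%), GRIK4, GRIK3, GRIN1 and GRIN2C were lost (22.2%), and none were gained.

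Of 39 HOX genes, which pattern the body axis, 6 were gained and all belong to the HOXD cluster on chromosome 2 (HOXD8 to HOXD13, within a single window), while the other 33 were called at neither time. The 6 HOXD genes were not called in the G1 list either. Of 18 intestinal epithelial genes, 5 were lost (27.8%, EPHB2, VIL1, MUC2, CDX1 and ASCL2) and 2 gained (11.1%), among them OLFM4, a stem cell marker of the crypt, against 14.9% and 3.18% of all genes. Counts this small differ from those shares by few genes.

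Genes that every cell uses were found in lost windows at about the rate of all genes. Few were in kept or gained windows, which also held few of all genes (2.06% and 3.18%). Of 86 cytosolic ribosomal protein genes, 16 (18.6%) were lost, such as RPL37A, RPL22, RPL10 and RPS14, and 1, RPL14, was gained. Of 78 mitochondrial ribosomal protein genes 12 (15.4%) were lost and 1, MRPS33, was kept, and of 39 proteasome subunit genes 5 (12.8%) were lost and 1, PSMD6, was gained. Set against the 14.9% of all genes that were lost, these shares are near the background. Of 508 zinc finger genes 62 (12.2%) were lost, 10 gained, among them ZNF521, and 3 kept, the longest being ZNF385D. However, 246 of the 508 lie on chromosome 19, where no window was called at either time. The lost share on the other chromosomes is therefore higher than 12.2%. Of 149 keratin and keratin-associated protein genes the 6 lost ones are neighbours on 11p (KRTAP5-1 to KRTAP5-6), and of 64 replication-dependent histone genes 2 were lost, H2AC25 and H2BC26, both outside the main histone clusters.

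The genes of the lamina itself gave 5 lost members of 20 (25%) and none kept or gained, against 14.9% of all genes lost, 2.06% kept and 3.18% gained. They were LMNB1, which encodes lamin-B1, SUN1 and SYNE3, which link the lamina to the cytoskeleton, EMD, which encodes emerin, and ANKLE2, which takes part in rebuilding the envelope after mitosis. LMNB1 lies 54.8 Mb from a chromosome end, in the zone beyond 40 Mb that held 157 of the 3197 lost windows. Its call at 90 min was a single isolated window (chr5:126100001-126200000), which does not remain when regions under 200 kb are left out. Of 31 nucleoporin genes 6 were lost (19.4%, near the 14.9% of all genes), among them NUP98, NUP214, NUP210 and AHCTF1, the last of which encodes ELYS, a protein that brings pore assembly to chromatin after mitosis. Of 5 genes known for telomere position effects over long distances, TERT, ISG15 and SORBS2 were lost (60%, against 14.9% of all genes). These 3 lie 0.95 to 4.50 Mb from an end, and 45.9% of all windows within 5 Mb of an end were lost. Of 9 cell cycle and replication genes named by the study, CDT1, a replication licensing factor, was lost and the others were called at neither time, as were all 15 early growth and G1 cyclin genes.

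**Figure D4:**
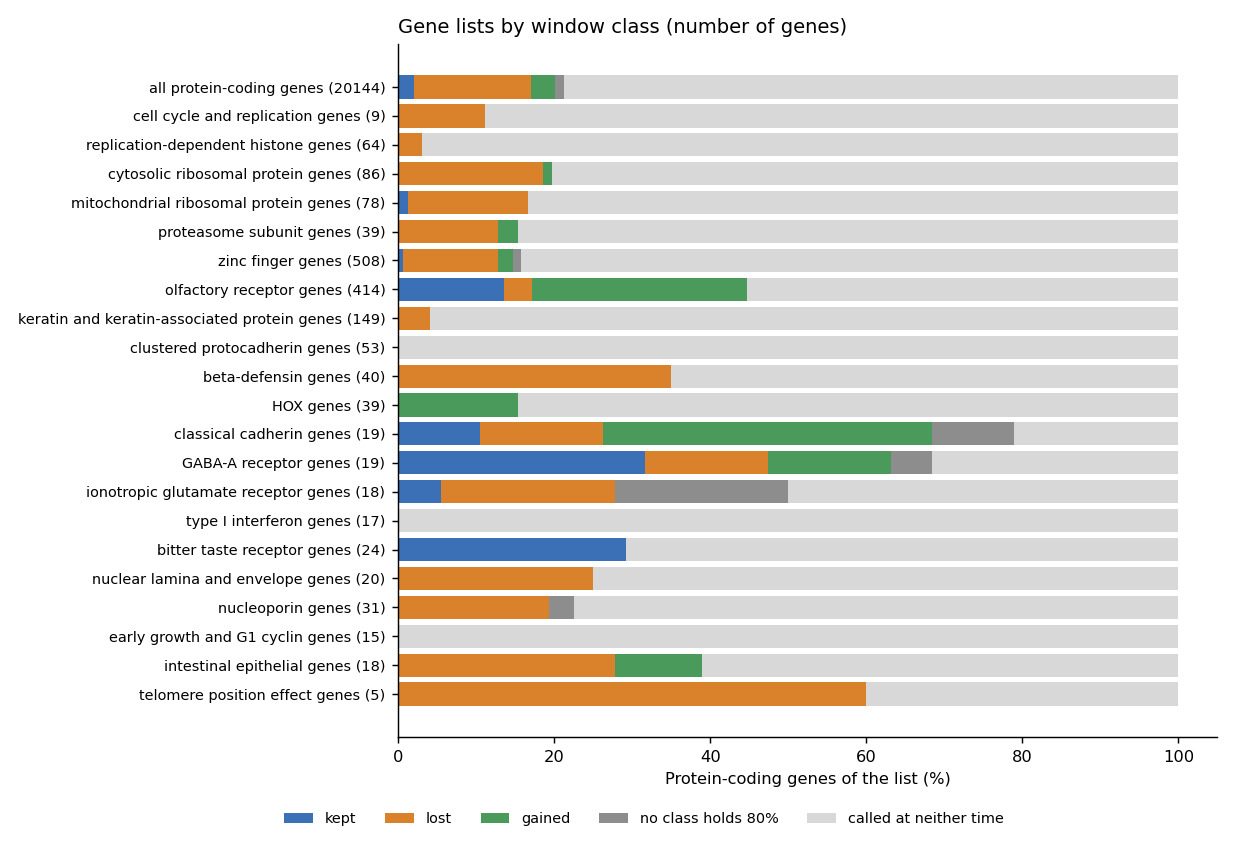
Percentage of the protein-coding genes of each list that lay in kept (blue), lost (orange) or gained (green) windows, in no single class over 80% of their length (dark grey) or in windows called at neither time (light grey), with the number of genes in brackets. All genes are the top bar, with 14.9% lost. Olfactory receptor and classical cadherin genes have wide green parts. The widest orange part is that of the telomere position effect genes, a list of only 5 genes.

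The classes were then looked up in lists that took no part in defining them. Kept and gained windows were largely the windows called in growing cells, and lost windows largely were not. In asynchronous G1 cells 82.0% of the kept, 75.9% of the gained and 10.6% of the lost windows were called, against 4.52% of the windows called at neither time. S phase cells gave 87.9%, 83.7% and 11.4%, and G2 cells 81.9%, 77.8% and 7.91%. All of G1, S and G2 held 77.3% of the kept, 72.2% of the gained and 5.25% of the lost windows, and none of them held 9.34%, 13.9% and 84.8%. Over the chromosomes with at least 20 windows of the class, the G1 share of lost windows (21 chromosomes) ran from 0 to 85% with a median of 10.8%. The highest value was that of chromosome 20, with 20 lost windows. The G1 share of kept windows (17 chromosomes) ran from 58.2 to 100%.

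The list of bulk HCT116 cells held 34.3% of the lost windows, together with 94.7% of the kept and 82.0% of the gained ones. It is a larger list, with 26.9% of all windows against 20.2% in the G1 list, and held 8.32% of the windows called at neither time. In K562 cells, a leukemia line mapped with the same method, gained windows were called most, at 86.3%, and kept windows at 78.3%. Lost windows were called at 16.3%, below the 30.1% of windows called at neither time. The order of these last classes was the opposite on chromosomes 10, 11, 15, 16, 18 and 20. A further list holds the K562 regions depleted near the lamina by both cTSA-seq and TSA-seq. Lost windows had the highest share in it, with 40.3%, against 24.0% for windows called at neither time, 0.866% for kept and 0.234% for gained windows. Over 21 chromosomes the share of lost windows ran from 0 to 61.6%, with a median of 39.4%. On chromosomes 11, 15, 17, 18 and 20 it was below that of windows called at neither time. The longest lost run of chromosome 9 lay in that list to 87.8%. The lost windows were thus mostly regions that were off the lists of later HCT116 stages, and a large part of them lay in the opposite list of another cell line. All lists were deposited by the same study and called by its method. The list of depleted regions also draws on TSA-seq, for which the paper used published data with another antibody besides its own. K562 differs from HCT116 in karyotype and cell type.

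**Figure D5:**
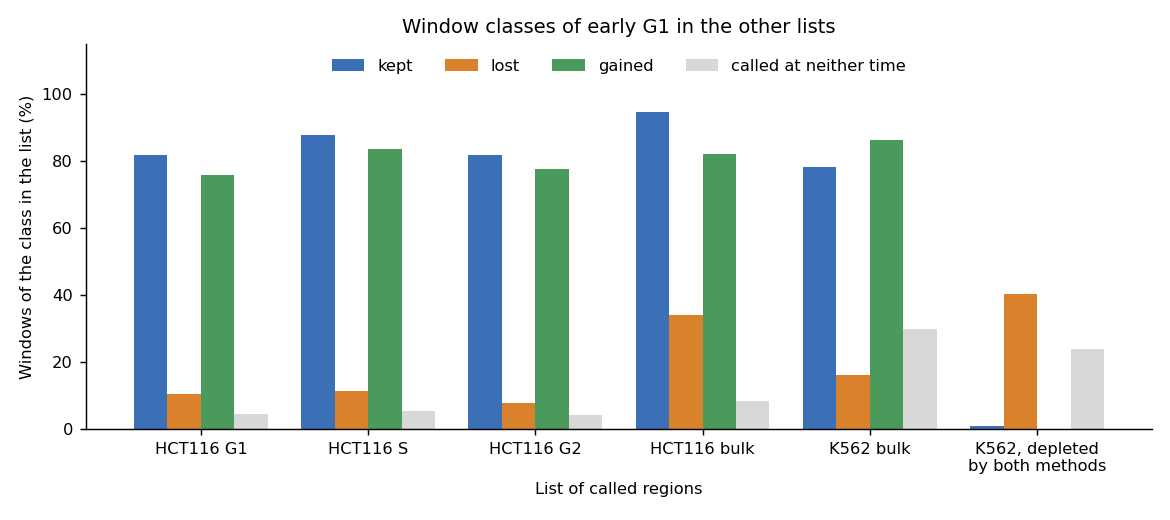
Percentage of kept (blue), lost (orange), gained (green) and uncalled (grey) windows of 90m G1 and 180m G1 that were called in the lists of asynchronous HCT116 G1, S and G2 cells, of bulk HCT116 cells, of bulk K562 cells, and in K562 regions depleted near the lamina by both methods. Kept and gained windows reach over 75% in the first 5 lists, and in the last one lost windows are highest with 40.3%.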

How the data were processed

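The values are region starts and ends in bp, deposited by the authors as 1 list per condition on hg19. By the study's methods, reads were aligned with Bowtie2, duplicates were removed with samtools, reads were counted in windows with bedtools, libraries were scaled to the same total, and pull-down over input, on a log2 scale, was turned into a z-score and segmented by a Hidden Markov Model of 3 states. The submitters' processing notes name hg19, Bowtie2 2.3.2, bedtools 2.26.0 and R. Replicates were intersected by the same methods, but the word consensus, which marks the other HCT116 lists, is missing from the names of both lists compared here. No signal or depth comes with the lists, so no interval or test between the times was computed. The methods give a longer block than the 16 h of the labels.

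The 90m G1 list held 204 regions (527 Mb) and the 180m G1 list 377 (634 Mb). Python 3.11.15 with numpy 2.4.6 and pandas 2.3.3 assigned windows of 100 kb to classes, and 10 simulated pairs of lists gave back every window's class. The simulated lists were built from whole windows of known class, so this checks the code alone and not the calls in the deposited lists. GC content came from GRCh37 over windows with at least 50% known bases, which left out 2308 windows, 57 of them lost, 3 kept and 3 gained, and genes from GENCODE release 44 lifted to GRCh37. The windows left out of GC content stayed in the shares by distance, chromosome and other list, and in gene density. Chromosome arms were divided at the centromere gap. Gene density and the shares in other lists were compared on chromosomes with at least 20 windows of each class.

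Named were the 3 longest runs of each class, the 3 longest 90m G1 regions, the 8 longest genes of each class, up to 4 members of each gene list per class, and the extreme chromosomes; all others were chosen after their values were seen. The members, gene lists and rules were chosen with earlier results of these data known. The printed stretches were chosen by median composition after the stretches at the middle of the same runs, with GC contents of 39% (lost) and 30.5% (gained), were seen not to represent their runs. Some named genes and a stretch of kept windows are not reported here. Alternatives were regions of at least 200 kb only, joined gaps, autosomes only, windows with known bases, neighbouring windows, other widths and gene shares, and leaving out each chromosome in turn.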

Additional observations from a re-analysis of the deposited data

How the results depend on the processing

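Of 62 alternative values, 44 stayed within a factor of 1.5 of a count or within the 95% interval of a share or median, which covers the spread over windows alone, and no alternative changed the order of the classes in GC content or gene number. Counting a window as kept when a neighbour was called at 180 min gave 42.7% of the 90m G1 windows in place of 39.4%. Leaving out each chromosome in turn gave 37.7 (without X) to 41.0% (without chromosome 1) for the share of 90m G1 windows kept and 31.3 (without chromosome 5) to 33.8% (without chromosome 18) for the share of 180m G1 windows already called. The widths of the terminal part moved its makeup, as the part itself changes. Kept, lost and gained windows made up 19.97, 45.9 and 1.34% within 5 Mb, 18.1, 28.5 and 7.05% within 20 Mb, and 23.6, 38.9 and 5.68% in the first and last 10% of the chromosome. The mean in place of the median gave a GC content of 40.3% for kept, 46.4% for lost and 37.1% for gained windows, and autosomes alone gave 39.96% for kept windows. Genes of all types numbered 2565 kept, 8744 lost and 4245 gained. On autosomes alone 0.542% of the kept windows were in the K562 list of regions depleted by both methods. No paired analysis was possible because each time has 1 list and no result comes from a test. Depth and replicate spread are unknown, so a difference between the times cannot be set against either.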
